A study of Ovis aries with 12 samples.

Results

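Late gestation was compared with the ages on either side of it in the longissimus, the long muscle of the back, of SuffolkxTexel sheep. The measurement was the level of each gene at day 133 of gestation (G133) minus the average of its levels at day 85 of gestation (G85) and at postnatal day 42 (D42). It is called the contrast below: it is 0 for a gene that lies midway between its neighbouring ages, positive where G133 lies above that point and negative where it lies below. The contrast uses 9 of the 12 libraries of the series, 3 per age. The other 3, from postnatal day 243 (D243), entered only the estimate of the spread and are described where stated. The labels name no treatment and no genotype other than the breed cross, which all groups share. Each library of G85, G133 and D42 carries a different number in its description, read here as the animal, although no label says so. The p-values therefore measure the spread between these libraries, which may be technical.

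In sheep, as in other mammals that are born mobile, muscle fibres form before birth in a primary and then a secondary wave, and growth after birth comes mainly from enlargement of existing fibres. Late gestation falls between these phases, after most fibres have formed and before the muscle bears weight. Hormones that mature fetal tissues, cortisol and thyroid hormone among them, rise towards birth in sheep. A highest or lowest level at this age would not be seen by comparing only early fetal with postnatal muscle.

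The table holds 15743 genes in CPM, read counts rescaled so that each library adds up to 1000000. The recovered totals of the 9 libraries ran from 10556715 to 23255962 reads, and D42 replicate 1 was the smallest. The table names genes by Ensembl identifiers, and 0 of them matched the reference table of gene names, so gene families are not described and the labelled tissue was not checked against marker genes. G133 replicate 1 stood apart from the other G133 libraries, and the main counts are given with and without it. In whole-muscle RNA, fewer cells of a type and less RNA per cell cannot be told apart.

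G133 lay about midway between G85 and D42, but well off the straight line that joins them. On log2(CPM + 1), the mean profile of G133 stood 53.1% of the way from G85 to D42. Its root mean square distance from the line was 0.419 per gene, where the G85 and D42 means were 1.17 apart. By library, G133 replicates 1, 2 and 3 stood at 49.9%, 56% and 53.5% of the way, at distances of 0.359, 0.529 and 0.548. The 6 libraries of G85 and D42 lay at distances of 0.238 to 0.322, each measured against a line drawn without it. All 3 G133 libraries were thus farther from the line than any neighbouring library, and replicate 1 was the nearest of them. The D243 libraries lay beyond D42, at 111% to 118% along the line and 0.433 to 0.486 from it.

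**Figure D1:**
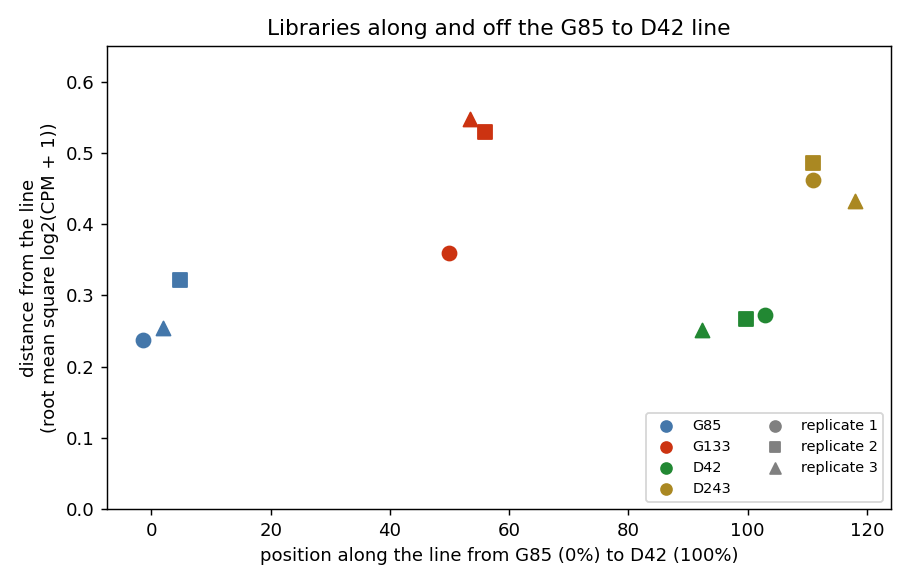
Position of each of the 12 libraries along the straight line from the G85 mean (0%) to the D42 mean (100%), against its root mean square distance from that line in log2(CPM + 1). Colours mark ages and symbols replicates; G133 replicates 2 and 3 lie at 0.529 and 0.548 and replicate 1 at 0.359, above the 0.238 to 0.322 of the G85 and D42 libraries.

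The same split was made on the differences between ages. Of the sum of squares between G85, G133 and D42 over all genes, 85.2% lay in the difference between D42 and G85 and 14.8% in the contrast. Per gene, the mean square of the contrast was 0.354, against 0.0639 within ages and 2.05 for D42 minus G85. On the median-ratio scale, in which each library is divided by the median of its gene-wise ratios to the average library, the contrast held 20% of that sum.

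About 1 gene in 5 lay off the midpoint at G133. The contrast passed the test for 3119 genes, or 19.8% of the table (limma, adjusted p under 0.05), and 5059 had an unadjusted p under 0.05. It was higher at G133 for 1371 genes (8.71%) and lower for 1748 (11.1%). Higher genes had a median contrast of 0.72 on the log2 scale and lower genes one of -0.62, and the median over all genes was -0.04. At least 2-fold from the midpoint were 371 of the higher genes and 194 of the lower ones, so larger departures were more often upward. Without G133 replicate 1 they were 551 and 468. On the median-ratio scale 1419 genes were higher and 1807 lower; 1259 and 1592 of these were the same genes as before, and 0 were called in opposite directions. Rescaling without the 50 most abundant genes moved the median of all genes to -0.14 and gave 1033 higher and 2604 lower. For comparison, the change from G85 to D42 passed for 79.2% of genes (limma; 1405 genes, or 8.92%, higher at D42 and 11057, or 70.2%, lower).

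How many genes were called rested on single G133 libraries. Without replicate 1 the contrast passed for 1568 higher and 3053 lower genes. Without replicate 2 it passed for 693 and 534, and without replicate 3 for 823 and 669, so that lower genes outnumbered higher ones with all libraries but not without either of these. Weighting libraries by their scatter, which gave G133 replicate 1 the lowest weight (0.23), called 2154 higher and 4505 lower. Called in the full table and again without each of the 12 libraries in turn were 612 higher and 472 lower genes; 396 and 405 of these were also called every time on the median-ratio scale.

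A non-zero contrast need not mean an extreme at G133, since a gene that changed early and then stayed level also leaves the midpoint. Crossing the contrast with the step before G133 (from G85) and the step after it (to D42), which passed the test for 52.5% and 47.3% of all genes, separated these courses. Among the 1371 higher genes, 772 (56.3%) did not pass the test from G85 to G133 and fell from G133 to D42. Another 213 rose to G133 with no call afterwards, and 63 fell at both steps. In 32 genes both steps were rises. The remaining 291 rose to G133 and fell after it. Among the 1748 lower genes, 932 (53.3%) fell to G133 with no call afterwards, 274 rose from G133 to D42 with no call before it, 189 fell at both steps, 25 rose at both, and 328 fell and then rose. Courses with a single called step were thus the commonest in both directions with all libraries as deposited. Without G133 replicate 1, rises and then falls (641) were as many among the higher genes as falls after G133 alone (639), while falls before G133 alone (1606) still led among the lower genes, ahead of 874 that fell and then rose. With all libraries, which single-step course led depended on the scale for lower genes. On the median-ratio scale 718 (39.7%) of them changed only by a rise after G133 and 618 (34.2%) only by a fall before it. Without G133 replicate 1 on that scale, 858 higher genes rose and then fell, ahead of 518 that only fell after G133. Of the lower genes there, 845 only rose after G133, 680 only fell before it and 610 fell and then rose.

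**Figure D2:**
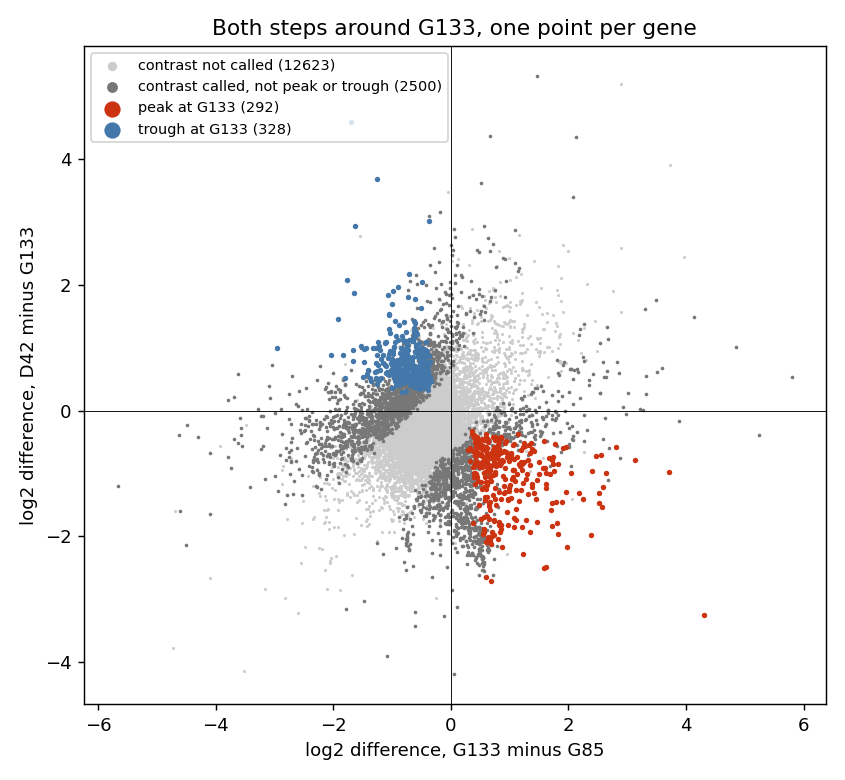
Log2 difference from G85 to G133 (horizontal) against that from G133 to D42 (vertical) for 15743 genes on log2(CPM + 1). The 292 peaks (rise, then fall) lie at lower right, the 328 troughs (fall, then rise) at upper left, and the dark grey points are the other genes called in the contrast.

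Upward departures were more frequent among the 500 most abundant genes than below them. Of the 450 genes ranked 51 to 500 by their mean over the 12 libraries, 235 (52.2%) were higher in the contrast and 44 (9.78%) lower, with a median contrast of 0.54. Of the top 50, 22 (44%) were higher and 4 lower, and the difference from the 52.2% was not tested. The next 4500 genes gave 482 higher and 596 lower (10.7% and 13.2%), and the 10743 below them 632 and 1104 (5.88% and 10.3%). Ranking by D243, whose libraries are not in the contrast, gave 188 higher and 57 lower in ranks 51 to 500. The direction in ranks 51 to 500 was the same on the median-ratio scale (230 higher, 48 lower) and by quantile normalization (174 and 78). Most of the 235 had the highest of their 3 age means at G133 (188 genes). As deposited, 29 were called as a rise and then a fall, and 157 did not pass the test from G85 to G133 and then fell. These were 63 and 114 of 230 on the median-ratio scale. Without G133 replicates 1, 2 and 3 in turn, 239, 169 and 201 were higher and 79, 17 and 21 lower. On the median-ratio scale the removal of replicate 2 left 82 higher and 19 lower, and that of replicate 3 left 119 and 22.

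**Figure D3:**
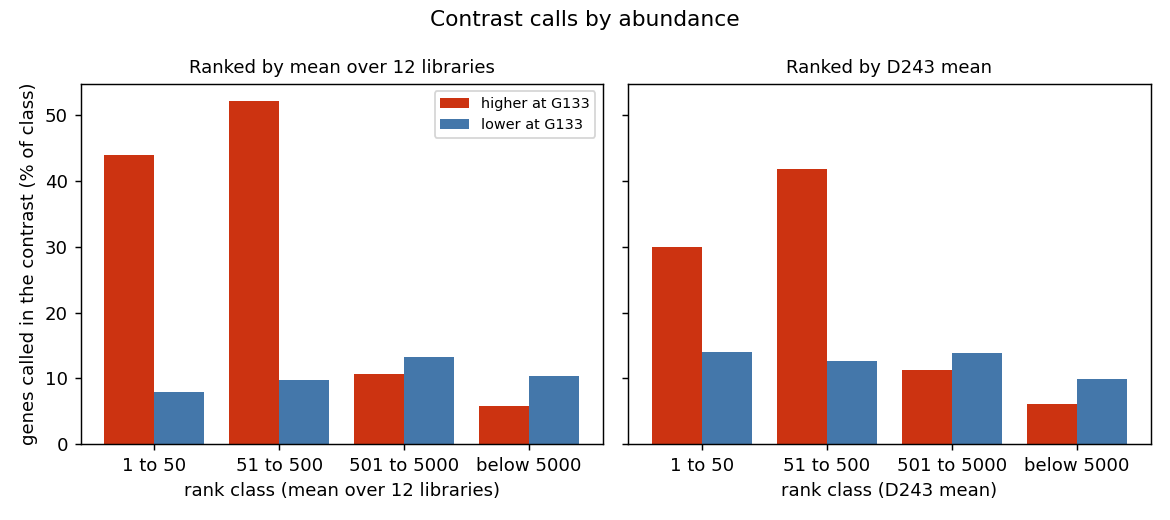
Share of genes in each abundance class that were called higher (red) or lower (blue) at G133 in the contrast, in percent of the class. Classes rank genes by the mean over all 12 libraries (left) or over the D243 libraries alone (right); in ranks 51 to 500, 52.2% and 41.8% were higher.

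CPM are shares of a fixed total, and this bears on the excess. Had every gene stood at its midpoint on the log scale, the G133 genes would add up to 83.1% of a library. The missing 16.9% must lie above the midpoints of some genes. It lay mostly in ranks 51 to 500, which held 31.2% of reads at G133 against 19.4% at the midpoints. The top 50 held 25.5% against 21.3%, the next 4500 genes held 31.5% against 30.3%, and the genes below held 11.9% against 12%. Spreading the missing reads evenly would raise every gene by 0.27 on the log2 scale. After that shift is taken off, ranks 51 to 500 kept a median contrast of 0.28, with 268 of 450 genes above 0. These ranks use the mean over the 12 libraries, in which the G133 level takes part. Ranked by D243 alone, ranks 51 to 500 had a median contrast of 0.256 before any shift, no larger than the shift of 0.266. Ranked by the mean of the 6 G85 and D42 libraries, which leave out G133 but enter the contrast, the median was 0.405 (214 higher, 55 lower). That is above the shift. Whether this class kept an excess thus depended on the ranking.

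Genes with their extreme at G133 were fewer than those off the midpoint. A peak is defined as a gene higher at G133 than at both G85 and D42, each at an adjusted p under 0.05, and a trough as the reverse. There were 292 peaks (1.85% of the table) and 328 troughs (2.08%). The size of a peak or trough is given by its prominence, the smaller of its differences from G85 and D42. The median prominence was 0.66 on the log2 scale for peaks and -0.58 for troughs. D42 minus G85 was called higher for 8.92% of all genes and lower for 70.2%. Among the 292 peaks it was higher in 50, lower in 80 and not called in 162. Among the 328 troughs it was higher in 48, lower in 37 and not called in 243. Peaks and troughs need opposite changes around G133, which favours a small difference between G85 and D42, so these counts follow in part from the definition. Only 50 peaks and 18 troughs stood at least 2-fold from both neighbours. The 3 G133 libraries lay above all 6 neighbouring libraries in 240 of the peaks, and in 371 genes (2.36%) of the table. They lay below all 6 in 234 of the troughs, and in 386 genes (2.45%). Since these libraries made the calls, the counts describe the lists and add no support.

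Which genes were peaks or troughs depended on the scaling more than their number did. On the median-ratio scale there were 335 peaks and 332 troughs, but only 149 and 105 of them were also called as deposited. Most genes fell in CPM at both steps (median changes below 0), and the scales place the level of no change differently. The 149 peaks and 105 troughs called on both scales are described next. Without G133 replicate 1, 503 peaks and 329 troughs were called on both scales, among them 139 of the 149 and 97 of the 105.

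The shared peaks had a median contrast of 1.13 and a median prominence of 0.76 on the log2 scale, and 41 were at least 2-fold above both neighbours. Of the 149, 19 ranked in the top 500 by mean level, 41 in the next 4500 and 89 below. Together they held 1.71% ± 0.278 of reads at G85, 3.16% ± 0.726 at G133 and 1.01% ± 0.0307 at D42 (SD, n = 3 each). The G133 libraries gave 2.32%, 3.56% and 3.6%, and the 6 neighbours 0.977% to 2.03%. Replicate 1 was again the nearest to the neighbours. For 58 of the 149, the D42 level did not differ from that at G85 by the test, which the definition of a peak favours. As deposited, that difference passed for 79.2% of all genes.

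The shared troughs had a median contrast of -0.90 and a median prominence of -0.71, and 15 were at least 2-fold below both neighbours. They held 1.01% ± 0.0579 of reads at G85, 0.411% ± 0.123 at G133 and 0.726% ± 0.0512 at D42 (SD, n = 3 each). Their share was 0.543%, 0.391% and 0.301% in G133 replicates 1, 2 and 3, and 0.674% to 1.07% in the neighbours. By mean level 6 ranked in the top 500, 33 in the next 4500 and 66 below. These sums are over genes chosen for this course, so both their order and their size follow in part from that choice.

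The most prominent genes are described by identifier: the 2 peaks and 2 troughs of largest prominence among those with a mean of at least 10 CPM. ENSOARG00000017779 was the most prominent peak and ranked 166 by its mean level. Its level was 241.9, 322.7 and 278.2 CPM at G85, 921.1, 2065 and 1668 CPM at G133, and 303.8, 367.6 and 459.6 CPM at D42. All G133 libraries lay above all neighbours, replicate 1 the nearest to them. The contrast was 2.19 ± 0.22 on the log2 scale (SE; limma adjusted p = 5.99e-05), and by the log2(CPM + 1) fit the G133 level was 5.25-fold that at G85 and 3.95-fold that at D42. At D243 the gene stood at 566.2 ± 49.3 CPM (SD, n = 3), between D42 and G133. Whether D42 exceeded G85 depended on the scale: the log2 difference was 0.41 as deposited (limma adjusted p = 0.152) and 1.18 on the median-ratio scale (limma adjusted p = 0.00716).

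ENSOARG00000010069 was the next peak. It stood at 89.75, 114.6 and 113.7 CPM at G85, at 325.6, 568.7 and 389.6 CPM at G133, and at 86.01, 71.06 and 124.7 CPM at D42. The levels at G85 and D42 overlapped, and their difference did not pass the test (log2 difference -0.20 ± 0.31, limma adjusted p = 0.558). The contrast was 2.07 ± 0.27 (SE; limma adjusted p = 0.000358). At D243 the level was 71.46 ± 38.7 CPM (SD, n = 3), with replicate 1 at 115.8 CPM above the other 2 at 44.55 and 54.05 CPM.

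ENSOARG00000005325 was the most prominent trough, and it was low at G85 as well. It measured 12.65, 9.528 and 11.52 CPM at G85, fell to 4.211, 3.272 and 1.376 CPM at G133, and reached 59.96, 180.3 and 65.88 CPM at D42. The G133 values rest on 66, 64 and 32 reads. The log2 difference from G85 was -1.70 ± 0.36 (SE; limma adjusted p = 0.00182) and from D42 -4.59 ± 0.36 (limma adjusted p = 2.29e-06), so the later step was the larger. Most of its contrast of -3.14 ± 0.31 (limma adjusted p = 5.99e-05) thus came from the rise to D42. Its D243 libraries held 45.03 to 67.18 CPM.

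ENSOARG00000012149 dipped at G133 below every library of the other ages. At G85 it measured 13.54, 11.89 and 16.93 CPM, at G133 6.38, 1.636 and 4.601 CPM, and at D42 17.62, 13.06 and 19.27 CPM. The G133 values come from 100, 32 and 107 reads. No G133 library reached the lowest neighbour. The contrast was -1.76 ± 0.25 (SE; limma adjusted p = 0.000716). D42 minus G85 was 0.22 as deposited (limma adjusted p = 0.499) and 0.93 on the median-ratio scale (limma adjusted p = 0.0168). At D243 it stood at 14.12 ± 1.88 CPM (SD, n = 3), within the range of G85 and D42.

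**Figure D4:**
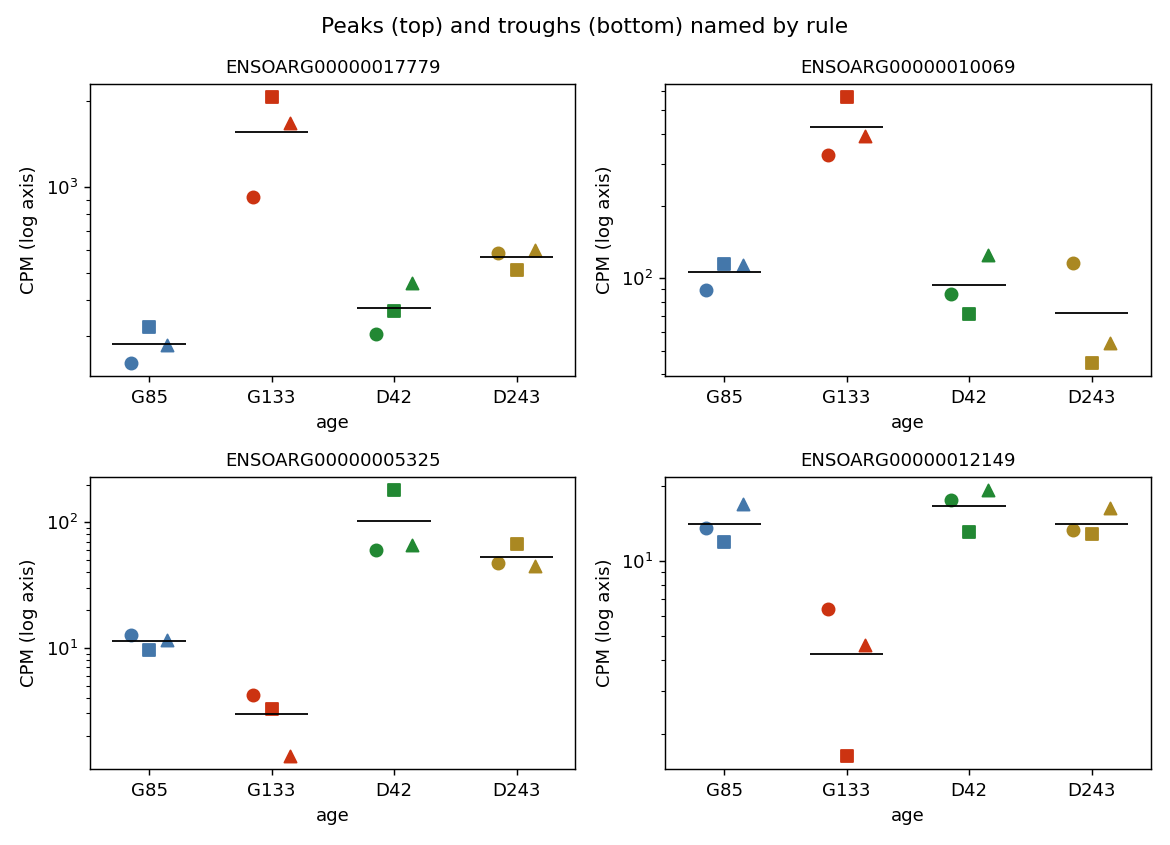
CPM (log axis) of the 2 most prominent peaks (top) and troughs (bottom) in each of the 12 libraries by age; symbols mark replicates and bars the age means. ENSOARG00000017779 reaches 921.1 to 2065 CPM at G133 and ENSOARG00000012149 falls to 1.636 to 6.38 CPM there.

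All 4 contrasts kept their direction and passed the test in each of 43 alternatives, where the adjusted p reached at most 0.0102 (ENSOARG00000010069). These genes were chosen as the most prominent in the same libraries, so the choice favoured passing and the count adds no support. As a trough, ENSOARG00000005325 was lost in 2 of the 43, without G85 replicate 1 and without G133 replicate 3, both on the median-ratio scale. The 12 most prominent peaks with a mean of at least 10 CPM had prominences of 1.29 to 1.98 on the log2 scale and mean levels of 13.7 to 693.9 CPM. In 11 of the 12 the G133 libraries lay above all 6 neighbours, against 2.36% of all genes, and 11 were called on the median-ratio scale. The 12 most prominent troughs had prominences down to -1.70, each at least 2-fold, and mean levels of 11.5 to 2409 CPM. In 10 of them the G133 libraries lay below all 6 neighbours, against 2.45% of all genes, and 9 were called on that scale. Both sets were chosen for their distance from these neighbours, so the counts describe them and add no support.

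The G133 libraries did not contribute equally. In 176 of the 292 peaks and 305 of the 328 troughs, G133 replicate 1 was the G133 library nearest to the neighbouring ages. On the median-ratio scale it was so in 268 of 335 peaks and 273 of 332 troughs. The share over all genes was not counted. As deposited, replicate 1 had a median of 17.48 CPM over all genes, against 14.93 and 15.05 in replicates 2 and 3. The 305 troughs thus need not show a trait particular to troughs. Each G133 replicate was then examined on lists called without it. The same 6 neighbouring libraries made these lists and also set the midpoint and the range used here. That choice favours a left-out library lying on the same side, and the shares over all genes do not correct for it. Peaks called without replicate 1 numbered 641, with a median contrast of 1.20 in replicates 2 and 3; replicate 1 had a median of 0.45 over them. It lay above all 6 neighbouring libraries for 238 of the 641 (37.1%), against 8.34% of all genes. The 874 troughs called without it had a median of -0.81 in the other libraries and -0.17 in replicate 1, which lay below all 6 neighbours for 28.9% of them, against 3.9% of all genes.

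Replicates 2 and 3 behaved otherwise. Replicate 2 lay above all 6 neighbours for 93.2% of the 191 peaks called without it (8.54% of all genes), and replicate 3 for 87.5% of its 224 (8.78% of all genes). For troughs called without them the shares were 97% of 133 and 99.3% of 138, against 15.4% and 15.5% of all genes. On the median-ratio scale replicate 1 lay beyond the neighbours for 28.2% of 858 peaks and 55.1% of 610 troughs, against 8.63% and 10% of all genes. Replicates 2 and 3 lay beyond them for 94.4% to 97.7% of theirs, against 15.3% to 16.7% of all genes. On the lists made without it, replicate 1 stood on the same side of the midpoint as the others for 93.4% of peaks and 76.5% of troughs as deposited, against 63.5% and 36.5% of all genes, so it mostly departed the same way but less far. Lists made without replicate 2 or 3 rest on replicate 1, so the shares of the 3 libraries come from lists of different make-up. Spread within an age was also widest at G133, with a root mean square SD of 0.304 on the log2 scale, against 0.225 at G85, 0.221 at D42 and 0.298 at D243. Why replicate 1 differed was not tested.

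**Figure D5:**
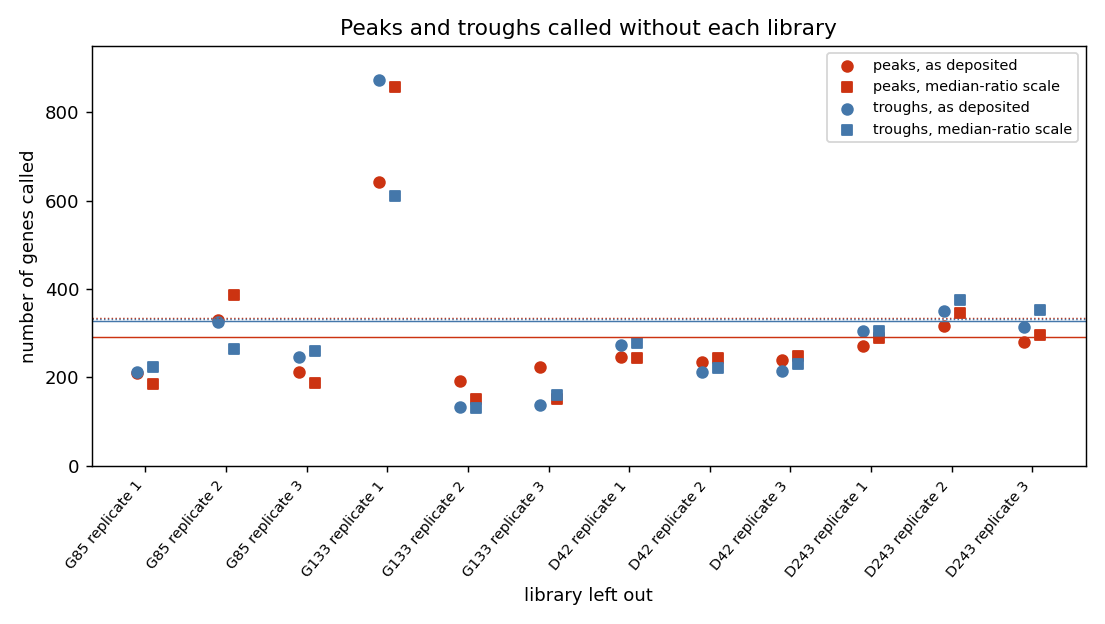
Number of peaks (red) and troughs (blue) called when each of the 12 libraries is left out, as deposited (circles) and on the median-ratio scale (squares); horizontal lines give the counts with all libraries (solid, 292 and 328 as deposited; dotted, 335 and 332 on the median-ratio scale). Without G133 replicate 1 the counts rise to 610 to 874, and without replicate 2 or 3 they fall to 130 to 224.

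D243, which was in neither list's definition, shows where these genes stood later. For 166 of the 292 peaks the D243 mean fell within the range of the 6 G85 and D42 libraries, or 56.8%, as it did for 42.2% of all genes. It lay above that range for 49 (16.8%) and below it for 77 (26.4%), against 6.69% and 51.1% of all genes. In 13 peaks D243 was above G133. The median D243 level of the peaks was 0.98 below G133 on the log2 scale, against 0.55 below for all genes. Among the 328 troughs, D243 lay within the range for 149 (45.4%), above it for 89 (27.1%) and below it for 90 (27.4%), and it was below G133 for 24. Of the 641 peaks called without G133 replicate 1, 463 lay within the range at D243, 67 above and 111 below, and of the 874 troughs 362, 168 and 344. The median trough stood 0.72 above G133 at D243. D42 and G133 enter both the lists and these differences, so they are given as a description.

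Reads were concentrated in the most abundant genes at G133 more than at G85 and less than at D42. The top 10 genes of a library held 8.43% ± 0.814 of reads at G85, 13.7% ± 1.41 at G133 and 28.9% ± 0.536 at D42 (SD, n = 3 each). All 3 G133 libraries (12.5% to 15.3%) lay below the midpoint of 18.7%, and their mean was -4.94 points from it, where the spread within ages gives a standard error of 0.7. The share of the top 50 was likewise -5.14 ± 0.754 points (SE) from its midpoint, again with all 3 libraries below. On the log2 scale these departures were smaller, -0.19 ± 0.08 and -0.11 ± 0.05 (SE). For the top 500, 2 libraries lay above the midpoint and replicate 1 below it (2.51 ± 1.71 points, SE).

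The median CPM was -1.11 ± 0.731 (SE) from its midpoint, with replicate 1 above it and the other 2 below. The effective number of genes, the exponential of the Shannon entropy, lay below the arithmetic midpoint in all 3 G133 libraries (2005 to 2274 against 2317) and above the midpoint taken on the log2 scale (1829), so its direction depended on the scale. No p-value is given for the departures of these 5 measures. The permutation test chosen for them exchanges G133 with the pooled libraries of G85 and D42, whose spread is the difference between those ages, so a value between the 2 ages cannot pass it.

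A further measure was chosen after these values were seen. The genes ranked 51 to 500 within each library held 25.5%, 28.4% and 25.4% of reads in the G85 libraries, 25.3%, 32.6% and 33.8% at G133, and 19.5%, 19.3% and 19.5% at D42. G133 replicates 2 and 3 were the highest of the 9 libraries and replicate 1 was at the level of G85. The difference from the neighbours was 7.66 points, where the spread within ages gives a standard error of 2.01. The exact permutation test did not pass (p = 0.0595, two-sided, over 84 choices of 3 from 9 libraries). The smallest possible p of that permutation test is 0.0119, and its adjusted p over 6 measures was 0.357. The spread of that test also holds the difference between G85 and D42, so no conclusion is drawn from it. Without replicate 1, the lowest G133 library, the difference was 10.3 points, and no test is drawn from leaving it out.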

How the data were processed

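RNA was extracted with Trizol and poly(A)-selected for NEBNext Ultra II libraries, per the labels' protocols that do not state strand. The authors deposited CPM, which sum to 1000000 in each column. Per the submitters' processing notes, the tools were edgeR 3.34.1, featureCounts 2.0.2, RSEM 1.3.3, Trim Galore 0.6.6 and FastQC 0.11.9, listed with neither role nor order. Genome build and annotation: not given in the sources used here. Of the 188642 values above 0, 100% lay within 0.01 reads of a whole multiple of 1 step per library, so whole reads were recovered for count models: edgeR 4.0.16 called 3241 genes in the contrast and DESeq2 1.42.0 called 3795.

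Ages and replicates came from the titles. The test was limma 3.58.1 (R 4.3.3) with a mean-variance trend on log2(CPM + 1), a scale that understates changes of low genes, with age as the only term, 12 libraries and 8 residual degrees of freedom. P-values were two-sided and Benjamini-Hochberg adjusted over 15743 genes. The test was also run on simulated counts for these genes, built with the contrast at 0 except in 200 genes. It recovered 40.3%, 98.5% and 100% of 1.5-, 2- and 4-fold changes and called 0.0515% of unchanged genes. The simulation gave all genes and libraries the same scatter, although the real spread was widest at G133. It also did not hold the G133 libraries to a fixed total, so these rates need not hold for the real libraries. No 2 groups shared animals by number except D42 and D243.

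The planned lists and markers need gene symbols and were not used. Named genes are the 2 peaks and 2 troughs of largest prominence with a mean of at least 10 CPM. The comparison, lists and definitions were chosen with earlier results of these data known. Alternatives covered pseudocount, filter, scaling, variance model, samples, blocks, thresholds, the midpoint and each library left out.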

Additional observations from a re-analysis of the deposited data

How the results depend on the processing

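All 4 named genes kept their direction and their call in the contrast in 43 of 43 alternatives, and none of these 4 contrasts reversed. Their choice as the most prominent genes in the same libraries favoured this result. Counts moved more, and the balance of higher and lower genes turned with them. Library weights gave 6659 calls in the contrast (2154 higher, 4505 lower), 834 peaks, 1184 troughs and 97 lower genes in ranks 51 to 500. Requiring 2-fold gave 565 (371 and 194), 50 peaks, 18 troughs, 135 higher and 12 lower genes in those ranks, and 5580 calls between D42 and G85. An adjusted p under 0.01 gave 1388 (727 and 661), 140, 94 and, lower in those ranks, 22. DESeq2 gave 534 peaks and 400 troughs and edgeR 425 and 330, and quantile normalization gave 78 lower genes in those ranks. Peaks thus outnumbered troughs in both count models but not in the main limma fit (292 and 328). Within limma the order varied with the setting: quantile normalization gave 346 peaks and 308 troughs, and TMM factors 321 and 333. Without the 50 most abundant genes there were 506 troughs, with 1033 higher and 2604 lower calls (28.4% higher), and the median of all genes moved to -0.14. D42 minus G85 gave 7761 calls without those genes, 7839 by edgeR, 8021 by DESeq2, 7770 on the median-ratio scale, 7768 with TMM factors, 8271 by quantile normalization and 8204 among genes of at least 10 CPM. The cause of these moves was not tested.

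Leaving out each library gave 1227 to 4621 calls (693 to 1568 higher, 534 to 3053 lower), 191 to 641 peaks, 133 to 874 troughs, 11540 to 12784 calls between D42 and G85, and 169 to 239 higher and 17 to 79 lower genes in ranks 51 to 500. On the median-ratio scale the ranges were 1141 to 4226 (484 to 1966, 657 to 2260), 150 to 858, 130 to 610, 6714 to 8152, 82 to 245 and 19 to 64. The G133 libraries set most of these ends. Troughs also fell to 212 without G85 replicate 1, 212 without D42 replicate 2 and 214 without D42 replicate 3, and peaks on the median-ratio scale to 184 and 187 without G85 replicates 1 and 3. The share of ranks 51 to 500 ranged from 6.03 to 10.3 points above the neighbours. With midpoints on the log2 scale, the top 10 share was -1.9 points from its midpoint, the top 50 share -2.23, and the effective number of genes 278.7 above, the reverse of the arithmetic scale.

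With the replicate number as a block (replicate block), the contrast called 3019 genes (1348 higher, 1671 lower), with 298 peaks and 341 troughs. Same-numbered libraries of G85 and G133 had deviations correlated at 0.327, 0.14 and -0.121, and those of G133 and D42 at -0.121, -0.0865 and 0.12. Those of D42 and D243, which share animals by number, gave 0.193, 0.163 and 0.174. With 3 libraries an age, such values cannot show whether the replicate numbers pair the other ages. A block for the numbers that D42 and D243 share called 3055 genes. Median-ratio values without a G85, D42 or D243 library, values of left-out G133 libraries, other rankings, the share of ranks 51 to 500, midpoints of the read shares on the log2 scale and courses without G133 replicate 1 were chosen after seeing the data. With 3 libraries an age and the same scatter for all genes, the simulated test recovered 40.3% of 1.5-fold changes. Smaller departures may therefore often be missed in the real libraries, although that rate need not hold for them.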
